A study of Mus musculus with 10 samples.

Results

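Newly made RNA of TX1072 cells after 24 h of doxycycline was compared with that of cells at 0 h. The comparison holds the 2 libraries labelled 24h_Dox and the 2 labelled 0h_Dox, 4 of the 10 libraries of the time course. TX1072 is a female mouse embryonic stem cell line from a cross of Mus musculus castaneus (Cast) with C57BL/6 (B6). Its endogenous Xist gene on the B6 X chromosome responds to doxycycline, so that the B6 X is silenced and the Cast X stays active. All 4 libraries came from cells labelled as wild type (WT), grown in 2i with LIF and labelled with 0.5 mM 4-thiouridine for 5 min, and the drug was used at 1 µg/ml. The line is a single engineered line, and 24 h of drug was also 24 h more in culture, with no doxycycline library that lacks inducible Xist. The drug, Xist RNA and time in culture therefore cannot be told apart here on the autosomes or on the Cast X, while a change on one allele alone is measured against the other allele in the same cells.

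TT-seq captures the RNA made during a short 4-thiouridine pulse, so it follows transcription and not the amount of stored mRNA. X inactivation makes up for the extra X chromosome of females: the non-coding Xist RNA coats the chromosome that expresses it and its genes lose transcription, apart from a set that escapes. Because the parents of TX1072 differ at many positions, reads over these positions can be assigned to one X or the other. A level on one allele is given as reads per 1000000 autosomal reads of the same allele (RPM), and a change is the log2 ratio of 24 h to 0 h on that scale with its standard error (SE). A gene is called changed at an adjusted p under 0.05 (edgeR quasi-likelihood test with Benjamini-Hochberg adjustment over all genes tested).

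Over the 10 libraries the total counts ran from 18809046 to 22274929, and 49.2% to 52.8% of them could be assigned to an allele. Xist itself behaved as its labels say. It had 9 and 8 B6 reads at 0 h and 4277 and 4189 at 24 h, against 3 and 5 Cast reads at 0 h and 8 and 8 at 24 h. Of 1027 other X-linked genes in the files, 362 had at least 10 allelic reads in every library and were tested, beside 11543 autosomal genes. Another 381 had no allelic read at all. Hdac6, Suv39h1 and Bcor, for example, had 0 reads of any kind in all 4 libraries. Whether such genes were silent or lost in counting was not tested. The first 0 h library stood apart, with the lowest allelic share of the 10. Its X-linked Cast reads were also the lowest, at 3.51% of autosomal Cast reads, against 3.78% in the other 0 h library. The 0 h group, which includes this library, had 3.64% ± 0.189 (SD, n = 2). The values that change without the first 0 h library are given beside the results they touch.

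On the B6 X transcription fell almost everywhere. The median X-linked gene changed by -1.30 on the log2 scale, with an interquartile range from -1.88 to -0.90, while the median autosomal gene on B6 changed by -0.012. Of the 362 X-linked genes 282 fell and 0 rose on B6, that is 77.9% called lower against 0.251% of autosomal genes. At an unadjusted p under 0.05 the edgeR counts were 334 lower and 0 higher, and DESeq2 called 251 lower and 0 higher. In 341 genes, or 94.2%, both 24 h libraries lay below both 0 h libraries, against 19% of autosomal genes. Taken from each pairing of one 24 h with one 0 h library, the median over the 290 X-linked genes with a mean of at least 50 allelic reads ran from -1.28 to -1.19, so no single library carried it. Without the first 0 h library 257 genes were called lower. With the replicate number as a block 308 were, or 85.1%, against 0.97% of autosomal genes in the same fit.

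**Figure D1:**
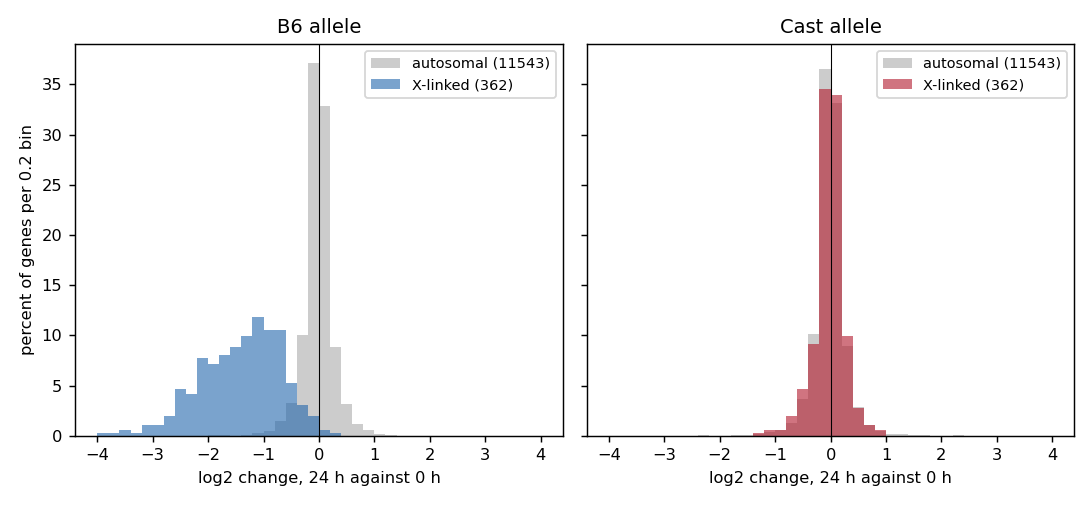
Percent of genes (vertical axis) per 0.2 bin of log2 change from 0 h to 24 h (horizontal axis), on the B6 allele (left) and the Cast allele (right), for 362 X-linked genes in colour and 11543 autosomal genes in grey. The X-linked genes on B6 are shifted to a median of -1.30, and those on Cast lie over the autosomal genes with a median of -0.014. One autosomal gene falls outside the B6 panel.

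The loss was graded. The median gene kept 40.7% of its 0 h level on B6. At one end 80 of the 362 genes kept under 25%, 166 kept 25% to 50%, 93 kept 50% to 75%, and 23 came out at 75% or more. The last class holds thinly read genes as well. Frmd7 was in it with 0 B6 reads in all 4 libraries and so has no B6 estimate, 9 others had a mean under 50 allelic reads, and 13 were among the 290 better-covered genes. The order of genes was similar in separate libraries: over the 290 better-covered genes, B6 changes from one 24 h and one 0 h library correlated with those from the other 2 libraries with Pearson's r from 0.748 to 0.851. This is a correlation across genes, which are not replicates. The same comparison over autosomal genes gave r between -0.037 and 0.187.

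Nhsl2, which encodes a protein related to the Nance-Horan syndrome protein, lost the most among these genes. Its B6 level was 147.9 and 108.5 RPM at 0 h and 10.2 and 7.71 RPM at 24 h, so the groups lay far apart. This is a change of -3.85 ± 0.18 (SE, n = 2 and 2, adjusted p = 1.03e-12). On Cast the gene had 129.7 and 99.1 RPM at 0 h and 96.3 and 88.3 RPM at 24 h, a change of -0.31 ± 0.13 that was not called. It lies at chrX:101849385-102092055 (mm10, plus strand), about 1.6 Mb from Xist on its centromeric side. Next in order were Stk26 (-3.46 ± 0.38), a kinase of the germinal centre family, Rragb (-3.22 ± 0.23), a Rag GTPase that relays amino acid supply to mTORC1, and Uprt (-3.15), a homologue of uracil phosphoribosyltransferase. Stk26 rests on few reads, 63 and 69 on B6 at 0 h and 4 and 8 at 24 h. The other genes of the 10 with the deepest loss were Gm364, Heph, Stard8, Kis2, Morc4 and Usp26, with B6 changes from -3.14 to -2.72. On Cast these 10 genes changed by between -0.66 (Morc4) and 0.88 (Kis2), and none was called there, apart from Usp26 with the replicate block (-0.58, adjusted p = 0.0092).

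Well-covered genes showed the same without the noise of low counts. Gpc3 encodes glypican 3, a cell surface proteoglycan that binds growth factors. It had 5012 and 5006 B6 reads at 0 h and 925 and 1004 at 24 h, and its B6 level changed by -2.41 ± 0.079 (adjusted p = 1.38e-15). On Cast it went from 1137 and 1044 RPM to 992 and 926 RPM, a change of -0.19 ± 0.072 that was not called. Huwe1, a large ubiquitin ligase, changed by -1.16 ± 0.076 on B6 with 2697 and 3147 reads left. Its Cast change was -0.013 ± 0.096. Genes this well read therefore differed among themselves by more than their SE.

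At the other end stood Kdm6a, the H3K27 demethylase UTX and a known escape gene. Its B6 level was 817 and 999 RPM at 0 h and 989 and 922 RPM at 24 h, so the groups overlapped. The change was 0.073 ± 0.079 on B6 (95% interval -0.13 to 0.28) and 0.18 ± 0.080 on Cast. Taf1, the largest subunit of the general transcription factor TFIID, had 193 and 202 RPM at 0 h and 189 and 169.7 RPM at 24 h on B6, a small step down without overlap. Its B6 change of -0.14 ± 0.086 was not called, yet its ratio of B6 to Cast fell by 0.26 ± 0.066 (adjusted p = 0.0070), since Cast went the other way by 0.12. The rest of the 10 highest were Pnma5, Mid1, 5730405O15Rik, Dkc1, Ddx3x, Atp6ap2, Idh3g and Timp1, with B6 changes from -0.17 to -0.38 and none called. With the replicate number as a block, or adjusted over X-linked genes alone, Ddx3x, Dkc1, Atp6ap2 and Idh3g were called lower on B6. Ddx3x was also called lower without the first 0 h library, at -0.43. Of the 13 better-covered genes that kept 75% or more on B6, 5 had a called fall in the ratio and 7 lay 60 Mb or more from Xist, as did 61 of all 290.

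**Figure D2:**
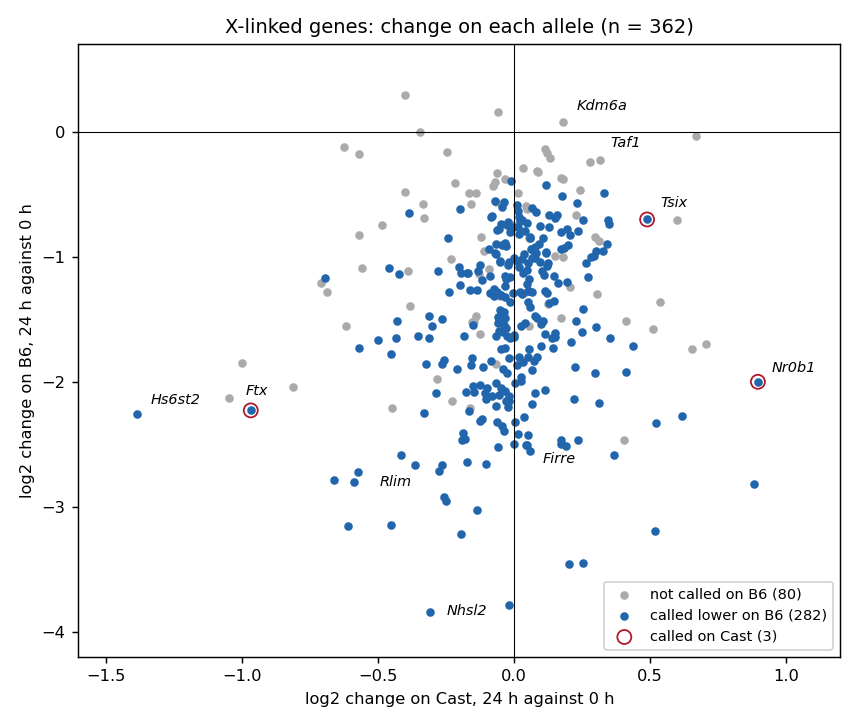
Log2 change from 0 h to 24 h on B6 (vertical axis) against that on Cast (horizontal axis) for each of the 362 X-linked genes. Blue points were called lower on B6 (282), grey points were not (80), and the 3 ringed genes, Nr0b1, Tsix and Ftx, were called on Cast. Nearly the whole cloud lies below 0 on the vertical axis and around 0 on the horizontal axis.

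Genes described as escaping X inactivation in mouse cells did not move as one group. Of 13 listed, 11 were tested and 8 fell on B6, with a median of -0.60, against 77.9% and -1.30 over all X-linked genes. The least affected were Kdm6a, Mid1 (-0.21 ± 0.12), a microtubule-bound ubiquitin ligase, Ddx3x (-0.31 ± 0.094), an RNA helicase, and Eif2s3x. Eif2s3x, a subunit of the initiation factor eIF2, fell by 0.40 ± 0.084 on B6 (adjusted p = 0.0046), from 185 and 189 RPM to 144 and 140.2 RPM. That call was lost without the second 24 h library, at -0.38. Utp14a (-0.56), 5530601H04Rik (-0.60), Pbdc1 (-0.64), Kdm5c (-0.79), an H3K4 demethylase, and Shroom4 (-0.85) fell by more, and that of 5530601H04Rik was lost without the first 0 h or the second 24 h library. Firre, a long non-coding RNA that takes part in the folding of the inactive X, was among the strongly affected genes. It went from 404 and 393 RPM to 58.2 and 81.3 RPM on B6, a change of -2.51 ± 0.12 (adjusted p = 1.23e-12), with 402 and 408 against 407 and 429.6 RPM on Cast.

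In the X-inactivation centre 5 of 10 listed genes in the files besides Xist could be tested. Of these 4 fell on B6, against 77.9% of all X-linked genes tested. Rlim encodes the ubiquitin ligase RNF12, an activator of Xist. It had 169.8 and 191.5 RPM on B6 at 0 h and 29.2 and 26.0 RPM at 24 h, a change of -2.71 ± 0.13 (adjusted p = 1.28e-12). Its Cast level was 170.5 and 195 RPM at 0 h and 154 and 148.9 RPM at 24 h, with no overlap but a change of -0.27 ± 0.090 that was not called (adjusted p = 0.43). Ftx, a non-coding RNA gene beside Xist, fell by 2.23 ± 0.20 on B6, and Tsix, the antisense partner of Xist, by 0.70 ± 0.098. Chic1, a neighbour of Tsix, fell by 0.74 on B6. Nap1l2, a nucleosome assembly protein, was thinly read and not called at -0.37.

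X-linked genes of every role fell on B6, and their counts are read against the 77.9% of all X-linked genes tested. Of 17 tested chromatin regulators 16 fell, with a median of -1.05. The largest falls were Morf4l2 (-1.91), a subunit of the NuA4 acetyltransferase complex, Rbbp7 (-1.65), a histone chaperone of several repressive complexes, Phf6 (-1.63) and Zmym3 (-1.53), and the exception was Kdm6a. Of 10 tested genes of cohesin, Mediator and the transcription machinery 9 fell, with a median of -1.46. Tceal8 changed by -2.24, Elf4, an ETS factor, by -1.93, Med12 of the Mediator kinase module by -1.90 and Smc1a, a core cohesin subunit, by -1.51, while Taf1 was not called.

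Among signalling and pluripotency regulators 10 of 11 fell on B6, and their median of -1.73 was the lowest of the 7 role groups. Stard8 changed by -2.96, Lpar4, a lysophosphatidic acid receptor, by -2.50, Gpc3 by -2.41 and Nr0b1 by -2.001. Dusp9, a phosphatase of ERK, had values of -1.21 on B6 and -0.71 on Cast, neither called. Metabolic genes fell in 13 of 16 cases with a median of -1.28. Pdk3, a kinase that inhibits pyruvate dehydrogenase, changed by -2.05, Acsl4, an acyl-CoA synthetase, by -1.84, Prps2 of nucleotide synthesis by -1.73 and the glycolytic enzyme Pgk1 by -1.61. Pgk1 went from 279 and 268 RPM to 87.4 and 91.5 RPM on B6, against 319 and 348 and then 392 and 349 RPM on Cast.

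Ubiquitin pathway genes fell in 8 of 10 cases with a median of -1.10, led by Rlim, Rnf128 (-2.17) and Cul4b (-1.55), a cullin scaffold. Of 14 RNA-binding and processing genes 10 fell, with a median of -0.87. Rbmx (-2.32), a splicing regulator, and Rbm41 (-1.81) fell most, and Nono (-1.29), a paraspeckle protein, lay at about the chromosome's median. Translation genes had the smallest loss of the 7 groups. Of 8 tested 6 fell, with a median of -0.70, among them Tsr2 (-1.43), Eif1ax (-1.01) and the ribosomal protein gene Rps4x (-0.80). Fundc2, a mitochondrial outer membrane protein in that list, changed by -1.48, and its call was lost without the second 0 h or the first 24 h library. Rps4x had 307 and 263 RPM at 0 h and 190.4 and 138 RPM at 24 h on B6. On Cast none of these genes was called apart from Nr0b1 and, with the replicate block, Pola1. The lists are of unequal depth and length, and whether their medians differ was not tested.

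Loss on B6 varied along the chromosome without a simple trend. Genes within 10 Mb of Xist had a median of -1.61 (n = 61), those 20 to 40 Mb away -1.21 (n = 81), those 40 to 60 Mb away -1.50 (n = 84) and those 60 to 110 Mb away -0.98 (n = 61), with only 3 genes between 10 and 20 Mb. The rank correlation of the B6 change with distance was 0.185 over 290 genes, and Pearson's r was 0.241. It was 0.327 with the Cast level at 0 h per kb of gene, where Pearson's r was 0.214 and which shares depth with the change, and -0.200 with gene length, where Pearson's r was 0.050 and so of the other sign. The 96 longest genes, from 60.4 kb up, kept a median of 34.5% on B6 and the 96 shortest, up to 21.8 kb, kept 47.2%. The length of 1 gene, Btbd35f15, is a span of 29826 kb in the files that covers many other genes. On Cast the medians of the same distance classes with over 3 genes lay between -0.020 and 0.015. These are descriptions across genes of the same libraries, with no test.

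**Figure D3:**
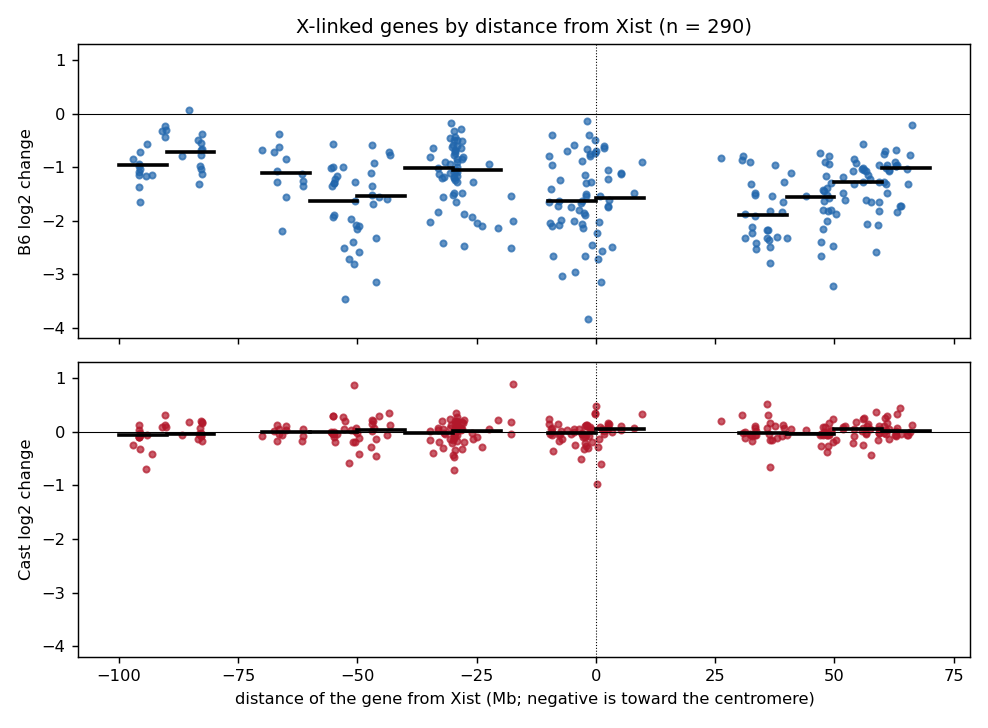
Log2 change from 0 h to 24 h on B6 (top) and Cast (bottom) against the distance of each of 290 X-linked genes from Xist in Mb, with negative values toward the centromere. Black bars are medians of 10 Mb windows that hold at least 10 genes. On B6 the genes nearest Xist had a median of -1.61 and those 60 Mb or farther -0.98, while the Cast points stay around 0 along the whole chromosome.

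Promoters of 3 genes that mark the range of outcomes are printed here, from 250 bases before to 50 bases after the RefSeq start on GRCm38.p6, in the direction of transcription and with CpG sites in capitals. They are Kdm6a (chrX:18162325-18162624, plus strand), which kept its level on B6, Rlim (chrX:103981236-103981535, minus strand), which lost most of it, and Nr0b1 (chrX:86191525-86191824, plus strand), which fell on B6 and rose on Cast.
Kdm6a: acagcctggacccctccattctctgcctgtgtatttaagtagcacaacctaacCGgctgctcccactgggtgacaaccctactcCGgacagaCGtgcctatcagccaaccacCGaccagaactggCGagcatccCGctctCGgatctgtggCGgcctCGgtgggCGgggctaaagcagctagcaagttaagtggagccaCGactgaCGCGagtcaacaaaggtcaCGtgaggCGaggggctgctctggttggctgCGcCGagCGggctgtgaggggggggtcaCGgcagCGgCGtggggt
Rlim: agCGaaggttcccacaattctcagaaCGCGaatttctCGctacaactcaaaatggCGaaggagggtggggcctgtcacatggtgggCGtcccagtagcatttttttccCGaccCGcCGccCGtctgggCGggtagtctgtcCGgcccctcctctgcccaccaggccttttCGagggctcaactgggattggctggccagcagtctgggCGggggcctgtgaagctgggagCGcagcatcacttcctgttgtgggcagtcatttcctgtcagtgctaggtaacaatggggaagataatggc
Nr0b1: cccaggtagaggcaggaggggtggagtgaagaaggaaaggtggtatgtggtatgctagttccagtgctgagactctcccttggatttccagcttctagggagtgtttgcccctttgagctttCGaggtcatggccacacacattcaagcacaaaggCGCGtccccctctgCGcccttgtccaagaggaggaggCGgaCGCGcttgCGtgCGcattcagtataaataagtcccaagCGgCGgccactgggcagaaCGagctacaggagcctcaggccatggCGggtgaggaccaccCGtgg
The windows hold 21, 15 and 14 CpG sites, against a median of 17 over the 245 better-covered X-linked genes with a promoter in the table. Promoters of the 10 genes with the highest B6 change had a median of 19.5 CpG sites, and the 8 matched among the 10 lowest had 12.5. Over the 245 genes the rank correlation of CpG count with the B6 change was 0.124. The letters CCATNTT, the core of the motif bound by YY1, on either strand, were in 2 of the 10 highest, 2 of the 8 lowest, 16.3% of the 245 and 16.1% of all 32851 promoters in the table. The Rlim window holds a match and the other 2 do not.

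On the Cast X transcription stayed close to its 0 h level for most genes. The median X-linked gene changed by -0.014, with an interquartile range from -0.13 to 0.11, and the median autosomal gene on Cast by -0.012. Of 362 genes 1 was called lower and 2 higher, or 0.276% and 0.552%, against 0.113% and 0.0606% of autosomal genes. In either direction this is 0.829% against 0.173%. At an unadjusted p under 0.05 in edgeR 23 of the 362 were lower and 23 higher, against 440 lower and 342 higher of 11543 autosomal genes. By this measure too the X-linked share was above the autosomal one. Both 24 h libraries lay below both 0 h libraries in 61 genes (16.9%, against 18.7% of autosomal genes) and above in 56 (15.5%, against 15.4%). Over the 290 better-covered genes the medians of the library pairings ran from -0.034 to 0.055, and Cast changes from separate libraries correlated across genes with Pearson's r between -0.0021 and 0.275. The median changed sign, to 0.017, without the second 0 h library.

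A p that misses the threshold does not show that a gene kept its level, so the width of the intervals matters. The 95% interval of the Cast change, built from the SE with 5 residual degrees of freedom, lay within 0.5 log2 of no change for 164 of the 290 better-covered genes and within 1 log2 for 269. Its upper end was under 1, short of a doubling, for 285 genes. By level, 278 of the 290 genes kept 75% or more on Cast and the median gene kept 100.1%, while on B6 the same genes kept a median of 41.3%. The B6 and Cast changes were only weakly related: with B6 changes from one replicate number and Cast changes from the other, Pearson's r across the 290 genes was 0.117 and 0.197.

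Nr0b1 was the clearest gene with opposite moves on the 2 X chromosomes. It encodes DAX1, a nuclear receptor cofactor of the embryonic stem cell network, and lies at chrX:86191775-86195946 (mm10), 17.3 Mb from Xist. On Cast it had 35.9 and 32.8 RPM at 0 h and 70.3 and 57.8 RPM at 24 h, from 172 and 175 reads to 336 and 317. This is a rise of 0.90 ± 0.14 (adjusted p = 0.0047). On B6 it went from 30.1 and 27.5 RPM to 7.88 and 6.53 RPM, a change of -2.001 ± 0.21. The sum over both alleles was level, with a change in total count of 0.015 ± 0.11. In the libraries between, Cast Nr0b1 read 37.2 and 31.0 RPM at 4 h, then 37.5 and 36.9 RPM at 8 h, and 48.4 and 45.0 RPM at 12 h. The higher values thus first appeared at 12 h. The call was lost without the first 24 h library, with a change of 0.75.

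Tsix likewise fell on B6 and rose on Cast. Its Cast level was 329.7 and 322 RPM at 0 h and 439.8 and 475 RPM at 24 h, a rise of 0.49 ± 0.088 (adjusted p = 0.017), while B6 went from 349.7 and 312 RPM to 200.4 and 206 RPM. Total Tsix changed by 0.062 ± 0.10. The counting used strand, so reads of Xist were not counted as Tsix by design, and Cast Xist held only 8 and 8 reads at 24 h. The call was lost when any 1 of the 4 libraries was left out, with changes from 0.43 to 0.54. Cast Tsix was already at 508.9 and 439 RPM at 12 h.

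Ftx fell on both alleles. On Cast it had 20.7 and 18.7 RPM at 0 h and 11.1 and 9.12 RPM at 24 h, from 99 and 100 reads to 53 and 50, a change of -0.97 ± 0.19 (adjusted p = 0.033). On B6 the change was -2.23 ± 0.20, and the ratio of B6 to Cast fell by 1.26 ± 0.27 as well (adjusted p = 0.00042). The Cast call was lost when any 1 of the 4 libraries or either 8 h library was left out, with changes from -1.11 to -0.83, with only the 4 libraries of 0 and 24 h in the fit, under DESeq2 (adjusted p = 0.15) and under limma-voom (adjusted p = 0.053). In this gene the loss was thus unequal between the alleles but present on both.

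**Figure D4:**
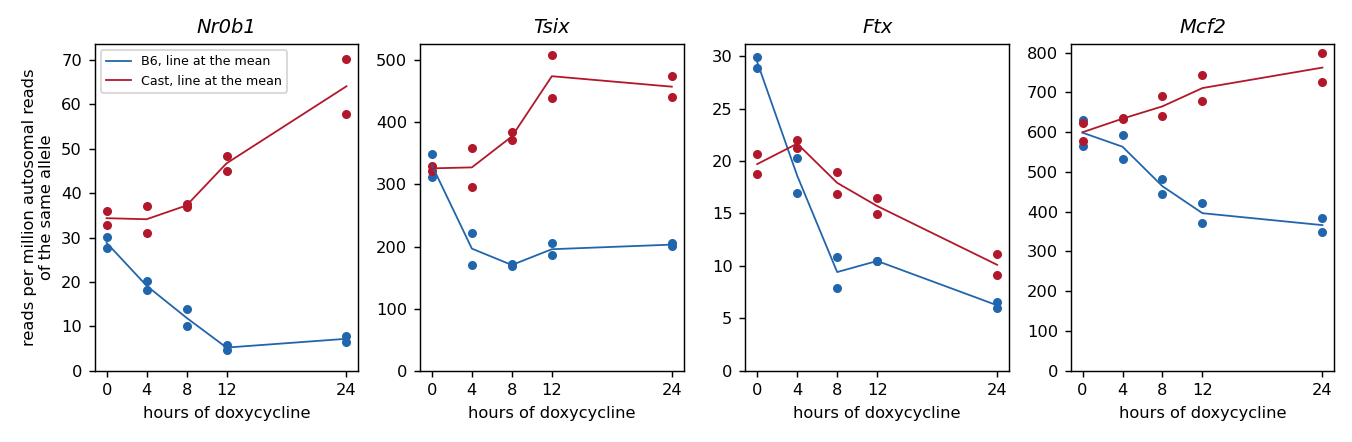
Allelic RPM (vertical axis, reads scaled to autosomal reads of the same allele) at 0, 4, 8, 12 and 24 h of doxycycline (horizontal axis) for Nr0b1, Tsix, Ftx and Mcf2, on B6 in blue and Cast in red. Points are single libraries (2 per time) and lines join their means. Cast Nr0b1 rises to 57.8 and 70.3 at 24 h while B6 falls, Ftx falls on both alleles, and Cast Tsix and Mcf2 end above their 0 h values.

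With the replicate number as a block, 14 X-linked genes were called on Cast, 6 lower and 8 higher, or 3.87% against 1.07% of autosomal genes. Besides the 3 above these were Mcf2 (0.35 ± 0.060), a guanine nucleotide exchange factor, Pola1 (0.24 ± 0.058), the catalytic subunit of DNA polymerase alpha, A830080D01Rik (0.24 ± 0.060), Chic1 (0.35 ± 0.089), Chm (0.33 ± 0.083), which escorts Rab proteins to their prenylation, and Nhs (0.37 ± 0.097). The other 5 were Hs6st2 (-1.38 ± 0.33), a heparan sulfate sulfotransferase, Lancl3 (-0.70 ± 0.19), Usp26 (-0.58 ± 0.13), Slc6a8 (-0.46 ± 0.12), the creatine transporter, and Tspan7 (-0.42 ± 0.098), a tetraspanin. They are named as the full set of calls, after their values were seen. Mcf2 had 623 and 577 RPM on Cast at 0 h and 799 and 726 RPM at 24 h, and its B6 level went from 631 and 566 to 384 and 348 RPM. All 14 genes had a negative B6 change, as did 358 of all 362 X-linked genes tested. Hs6st2 rests on few reads, with Cast levels of 7.52 and 7.31 RPM at 0 h and 2.302 and 3.28 RPM at 24 h.

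The ratio of B6 to Cast, which takes both alleles from the same libraries, fell in 273 of 362 genes and rose in 0 (also 0 at an unadjusted p under 0.05), or 75.4% against 0.147% of autosomal genes called lower. Its median was -1.28. The calls met in 258 genes that fell on B6, were not called on Cast and fell in ratio, and 12 genes fell in ratio alone. In total counts, which hold both alleles and reads without a variant, 191 of 502 X-linked genes fell (38% against 0.235% of autosomal genes). With the replicate number as a block 308 fell (61.4% against 1.38% of autosomal genes). Without the block 0 rose even before adjustment (unadjusted p under 0.05). The median total change was -0.50, since the Cast copy was still read.

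Few autosomal genes changed. In total counts 44 of 14019 were higher and 33 lower, or 0.314% and 0.235%. With autosomal reads in place of TMM scaling the split was 29 higher and 40 lower, so the balance of the directions depends on the scaling. With the replicate number as a block 464 genes were called (3.31%), 270 higher and 194 lower, and these held all 77. Adjusted over autosomal genes alone, without the strong X-linked changes, 16 were left. Without the first 0 h library there were 33 calls (30 of them among the 77), without the second 0 h library 68 (27 among the 77), without the first 24 h library 15 (13) and without the second 24 h library 24 (23).

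The changes were also read on each allele. Of the 44 higher genes 40 were tested on alleles and all 40 were higher on both, and of the 33 lower 31 were tested and 30 were lower on both. The total counts that chose these genes hold the same allelic reads, so this agreement follows in large part from the choice and is a description. In 12 genes the change was called on each allele separately without the replicate block, 8 lower and 4 higher. They are named as the full set of that fit, after their values were seen. With the block, autosomal calls went from 53 to 200 on B6 and from 20 to 123 on Cast. Genes called on both alleles were not counted in that fit. Fgfr2, a receptor of fibroblast growth factors, had 32.02 and 35.0 RPM on B6 at 0 h and 12.5 and 17.8 RPM at 24 h. On Cast it had 87.1 and 84.9 and then 33.1 and 44.1 RPM, and the changes were -1.14 ± 0.18 and -1.15 ± 0.13. Fermt1, an activator of integrins, changed by -1.65 ± 0.22 on B6 and -1.33 ± 0.22 on Cast. The other lower genes were Chst15 and Sulf1, which modify sulfated glycosaminoglycans, Parp8, Ror1, a receptor of Wnt ligands, Sfmbt2, a Polycomb group protein, and Sema3e, a semaphorin, with B6 changes from -0.87 to -0.39.

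The 4 higher genes were Klf12, Gng2, Klf3 and Cobl. Total changes of all 44 higher genes ran from 0.28 to 1.64, so these 4 were not the largest rises. Those of the 33 lower genes ran from -1.85 to -0.42. Klf12 and Klf3 are Krüppel-like zinc finger factors that act mostly as repressors, Gng2 is a G protein gamma subunit and Cobl nucleates actin filaments. Klf3 had 167 and 175 RPM on B6 at 0 h and 252 and 241 RPM at 24 h, a rise of 0.53 ± 0.081, and it rose by 0.49 ± 0.091 on Cast. Klf12 rose more on B6, by 0.87 ± 0.12 against 0.46 ± 0.087 on Cast, and its ratio of B6 to Cast was the only one called among the 71 genes. Other genes were called in total count but not on both alleles, such as Kdelr3, a receptor that returns proteins to the endoplasmic reticulum (0.98 ± 0.17), and Map1a, a microtubule-associated protein (0.70). The Map1a call was lost under 12 of the alternatives, among them every omission of a 0 h or 24 h library.

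**Figure D5:**
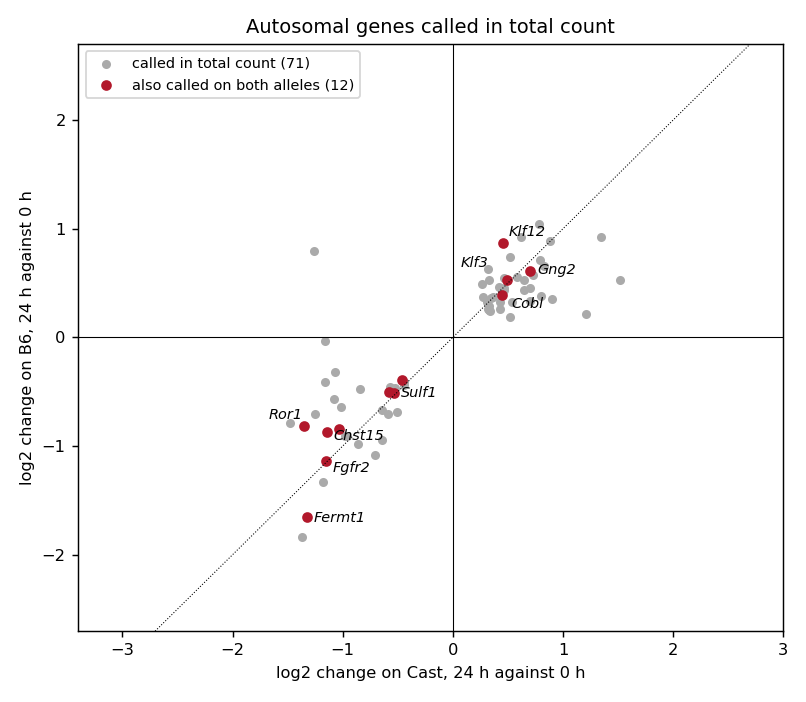
Log2 change from 0 h to 24 h on B6 (vertical axis) against that on Cast (horizontal axis) for the 71 autosomal genes called in total count and tested on alleles. Red points are the 12 genes also called on each allele, and the dotted line marks equal change. In 70 of the 71 genes both alleles moved in the same direction.

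A change of allelic balance on the autosomes was rare, with the ratio called in 39 of 11543 genes, or 0.338%, 22 higher and 17 lower. With the replicate block 60 were called, or 0.52%, 36 higher and 24 lower. Grhl2, a grainyhead-like factor of epithelial genes, kept its B6 level, 51.0 and 42.01 RPM against 49.4 and 42.4 RPM, but went from 30.3 and 28.8 to 17.0 and 12.2 RPM on Cast. Its ratio rose by 1.01 ± 0.18 (adjusted p = 1.03e-05). Pkhd1, which encodes fibrocystin of the primary cilium, rose in ratio by 0.57 ± 0.11 with B6 at -0.078 and Cast at -0.65. Its call was lost without the second 0 h library or the first 24 h library, at 0.41 and 0.36. B4galnt4, a glycosyltransferase, rose in ratio by 0.79 ± 0.20 through B6, and its call was lost without either 0 h library or the second 24 h library. Mcfd2 and Fcf1 completed the 5 highest, and Tmem181a (-1.83), Mnd1 (-0.96), Nt5e (-0.95), Esyt1 (-0.88) and Adamts7 (-0.86) were the 5 lowest. Each of these 7 calls was lost when at least 3 of the 4 libraries were left out in turn, and Tmem181a had only 7 and 6 Cast reads at 0 h. Of these 10 genes DESeq2 called Grhl2 alone, and over all autosomal genes it called 1 ratio higher and 1 lower.

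Marker transcription of embryonic stem cells was at a similar level at both times. Of 15 tested markers 0 were called in total count, against 0.549% of autosomal genes. A list this short would hold few calls in any case. At an unadjusted p under 0.05 in edgeR there was 1, against 465 lower and 667 higher of 14019 autosomal genes. With the replicate block only Tbx3 was called, from a mean of 106 to 124 counts per 1000000 (CPM). The summed level of the markers was 3288 to 3640 CPM at 0 h and 3454 to 3551 CPM at 24 h. Esrrb (1041 to 1031 CPM in the mean), Nanog (303 to 299.8) and Pou5f1 (121 to 119) were level, and Sox2, which lies within the span of Sox2ot on the same strand, was listed at 0 in every library. Of 13 tested genes of formative and primed pluripotency 1 changed, or 2 with Lef1 under the replicate block. Otx2, a homeobox factor, was lower by 0.84 ± 0.17 in total count, from a mean of 6.07 to 3.36 CPM, and its call was lost when any 1 of the 4 libraries was left out. Its alleles differed in direction, with 0.79 ± 0.73 on B6 and -1.26 ± 0.30 on Cast, neither called. Of 10 tested endoderm genes, 5 of the 2-cell-like state and 6 of fibroblasts 0 were called, and 1 had an unadjusted p under 0.05. Lama1 (315 to 348 CPM in the mean) made up most of the endoderm sum of 432 to 493 CPM. Lamb1 (49.3 to 52.2), Col4a1 (49.7 to 47.8) and Col4a2 (25.9 to 22.7) were read as well. The defining endoderm factors Gata4, Gata6 and Sox17 stayed under 2 CPM. Fn1 made up most of the fibroblast sum of 936 to 1009 CPM, with Col1a1 and Col3a1 under 1 CPM.

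Other groups held few calls as well. None of 23 tested autosomal partners of Xist RNA in silencing, 10 ERK target genes, 20 ATF4 targets, 14 p53 targets, 17 cholesterol synthesis genes and 19 glycolysis genes was called in total count, with medians from -0.066 to 0.12. At an unadjusted p under 0.05 there were 7 of these 103 genes, against 465 lower and 667 higher of 14019 autosomal genes. With the replicate block Slc7a11, Hk1 and Eda2r were called, where 3.31% of autosomal genes were. Of 21 endoplasmic reticulum folding genes only Kdelr3 was called. On B6 1 p53 target was called lower, the X-linked receptor gene Eda2r (-0.71), and on Cast none of these lists held a call. Over all autosomal genes 0.549% were called in total count, so lists of this length would hold few calls in any case.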

How the data were processed

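Gene counts of 10 libraries were used, from one file of B6, Cast and all reads per library. As deposited by the authors, the values are whole-number counts per gene over full gene spans with introns. Per the study's methods, reads were aligned to an mm10 genome with variant positions masked, kept if uniquely mapped as proper pairs, assigned to an allele by SNPSplit and counted by strand with featureCounts 1.5.1. Spike-in scaling is not stated for these values. The deposited files also hold the B6 share of allelic reads per gene as a fraction, which was read but not tested. Libraries were grouped by label, and nothing in the labels says whether the 2 libraries of a time came from separate cultures, so p-values measure the spread between these libraries.

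The B6 and Cast counts were each fitted with edgeR 4.0.16 (quasi-likelihood test) over all 10 libraries with time as factor, with autosomal reads of the same allele as library size, and the 24 h against 0 h contrast was taken. The ratio of B6 to Cast was fitted over the 20 allelic columns with an intercept per library. Total counts were scaled by TMM after filterByExpr. Allelic tests needed at least 10 allelic reads in every library, which keeps out 665 X-linked genes. A single gene in 2 against 2 libraries cannot go under p = 0.333 in an exact test. Intervals and low counts cover counting error and library spread only. Simulated data with known changes were used to test the scripts. Deviations of libraries with the same replicate number correlated at every time on B6 (r from 0.132 to 0.294), Cast (0.118 to 0.274) and total counts (0.227 to 0.524), which pairs the numbers, but not in the ratio (0.021 to 0.063). The fit without the block is the main one throughout. Blocked values are given for the main counts and for named genes whose call they change.

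Named genes were Xist, the tested escape and X-inactivation centre genes, the 10 lowest and 10 highest on B6 and the 5 lowest and 5 highest on Cast among X-linked genes with a mean of at least 50 allelic reads and 5 on each allele, all genes called on Cast, the 10 largest autosomal changes per direction on both alleles, the 5 largest ratio changes per direction, and up to 4 called genes per list. Not all autosomal genes under this rule are printed above, while all those called on each allele are. Members, the 21 gene lists and the rule were chosen with earlier results of these data known. RefSeq promoters are of GRCm38.p6. R 4.3.3, limma 3.58.1, DESeq2 1.42.0 and Python 3.11.15 were used.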

Additional observations from a re-analysis of the deposited data

How the results depend on the processing

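The fall on B6 and in the ratio kept its direction, and its count within 1.5 times, under every alternative run: other scalings (TMM over autosomal genes, both alleles together, without chromosome 16), filters, DESeq2, limma, only the 4 libraries, the replicate block and each library left out. X-linked genes lower on B6 numbered 230 to 282 and those with a lower ratio 231 to 275 with 1 library left out, and 308 and 277 with the replicate block. The median on B6 was -1.22 with at least 50 allelic reads in every library and -1.24 with no filter, and -1.33 to -1.26 with 1 library left out. Genes called on Cast numbered 14 with the replicate block, 6 with no filter, 5 when adjusted over X-linked genes alone, 3 under DESeq2 (Mcf2, Nr0b1 and Tsix), 2 under limma (Nr0b1 and Tsix) and 0 to 3 with 1 library left out: 0 without the first 24 h library and 1 without the first 0 h or the second 24 h library. The median on Cast ran from -0.025 to 0.017. Autosomal genes called in total count numbered 464 with the replicate block, 154 with no filter, 16 when adjusted over autosomal genes alone and 15 to 71 with 1 library left out. Of the values of named genes under these alternatives, 2098 kept their side of the threshold, 152 lost a call and 12 gained one. No value called in the main fit or in the alternative changed sign. Changes of sign between uncalled values were not counted. The replicate block changed no other call of a named gene than those given beside the results. Causes were not tested. The 95% interval of a Cast change reached 0.33 log2 to either side in the median over 290 genes, which limits what could be called.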

Other observations

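Chromosome 16 took 6.40% to 6.54% of autosomal Cast reads and 3.32% to 3.38% of autosomal B6 reads over the 10 libraries. Scaling without this chromosome left the X-linked counts at 282, 3 and 273.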
